A study of Mus musculus with 9 samples.

Results

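TRPM channels are a family of cation channels of the cell membrane, built from subunits that assemble as tetramers, with members that respond to temperature, steroids, calcium, ADP-ribose or magnesium. Their levels were followed in the mouse uterus in a study that asked, by its title, whether transient receptor potential (TRP) channels are involved in adenomyosis, the growth of endometrial tissue into the muscle wall. The 5 genes described here, Trpm2, Trpm3, Trpm4, Trpm6 and Trpm7, were taken by their symbols from the 18094 genes of the deposited count table, and all 5 passed the filter on low counts. RNA was sequenced from the uteri of 9 female mice of 13 weeks, 3 in each of 3 groups. Tamoxifen mice (AMS in the labels) received tamoxifen, a selective estrogen receptor modulator, by mouth at 1 mg/kg on days 1 to 5 of life, and tamoxifen+primidone mice (AMS_P) received the same. From week 10 the latter were also injected with primidone, 2 mg/kg each day, for 3 weeks. Control mice were fed the solvent as newborns, and control and tamoxifen mice were injected with vehicle as adults. No group received primidone without tamoxifen. The sources used here give neither the strain nor the stage of the estrous cycle.

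Among these channels, TRPM3 is the one that primidone, an anticonvulsant, is known to block. It conducts calcium, opens with heat and with the steroid pregnenolone sulfate, and is best known from sensory neurons. TRPM4 opens when calcium rises inside the cell but lets only sodium and potassium pass, and it is known for depolarizing smooth muscle of vessels. TRPM7 joins a channel for magnesium, zinc and calcium to a protein kinase and is made by nearly all cells, while TRPM6, its closest relative with the same build, is best known for magnesium uptake in kidney and gut. TRPM2 opens on ADP-ribose during oxidative stress and is best known from myeloid cells. A drug that blocks a channel need not alter the amount of its RNA, so the values below are of RNA only.

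The sequence just before the start that RefSeq annotates is printed for 3 members, the lowest (Trpm3) and the pair of channel kinases that lie on different chromosomes and far apart in level (Trpm7 and Trpm6). Each run is 250 bases, 5′ to 3′ on the gene's strand, from RefSeq on GRCm38.p6, with every CG dinucleotide in capitals. The starts are RefSeq's. The bases that RefSeq places after the start were found in GENCODE M21 transcripts for Trpm3, but not for Trpm6 and Trpm7, so the starts of the latter pair, on which their windows and CG counts rest, may differ between annotations.
Trpm7, chr2:126876262-126876511, minus strand: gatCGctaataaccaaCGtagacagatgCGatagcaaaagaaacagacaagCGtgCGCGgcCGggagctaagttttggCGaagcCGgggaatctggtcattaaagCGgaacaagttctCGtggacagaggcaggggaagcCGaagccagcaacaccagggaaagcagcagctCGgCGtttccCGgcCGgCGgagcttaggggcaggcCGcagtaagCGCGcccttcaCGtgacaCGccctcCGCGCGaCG
Trpm6, chr19:18749480-18749729, plus strand: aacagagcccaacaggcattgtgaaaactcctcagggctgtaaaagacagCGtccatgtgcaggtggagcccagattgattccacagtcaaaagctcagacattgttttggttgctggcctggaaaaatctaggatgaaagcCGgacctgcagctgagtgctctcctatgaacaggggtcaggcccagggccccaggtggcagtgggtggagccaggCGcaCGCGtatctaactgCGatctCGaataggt
Trpm3, first of its RefSeq starts, chr19:22138796-22139045, plus strand: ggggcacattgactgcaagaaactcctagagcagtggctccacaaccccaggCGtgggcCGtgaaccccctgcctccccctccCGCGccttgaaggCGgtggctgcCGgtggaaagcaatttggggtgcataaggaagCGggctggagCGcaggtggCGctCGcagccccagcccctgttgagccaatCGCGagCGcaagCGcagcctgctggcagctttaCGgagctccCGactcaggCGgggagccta
The window of Trpm7 held 26 CG dinucleotides, a number reached or passed by 9.59% of the 32851 windows of this length in the table, whose median was 6. Trpm3 held 17 at this start, reached by 23.5% of windows, and 9 at its other start, reached by 40.3%. Trpm2 held 10 (reached by 37.8%) and Trpm6 held 7 (reached by 46.3%), and Trpm4 was not matched. CG reads the same on both strands, so a single count covers both. Trpm3, with the lowest RNA level of the 5, thus had more CG at this start than Trpm2 and Trpm6.

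The 5 genes differed far more among themselves than any differed between groups. On the scale of the authors' FPKM values, which allow for gene length and sequencing depth, Trpm4 had a mean level of 16.6 ± 2.57 (SD, n = 9 libraries), Trpm7 8.11 ± 0.830, Trpm6 2.43 ± 0.732, Trpm2 0.156 ± 0.0537 and Trpm3 0.0241 ± 0.0110. The mean FPKM of Trpm4 was thus 690 times that of Trpm3. The FPKM ranges over the 9 libraries did not overlap between any neighbours in this order, from 12.2 to 20.9 for Trpm4, 6.88 to 9.54 for Trpm7, 1.72 to 3.88 for Trpm6, 0.109 to 0.275 for Trpm2 and 0.00448 to 0.0374 for Trpm3. The same order held in 9 of 9 libraries. Of all 18094 genes, 78.2% had a lower mean FPKM than Trpm4, 63.2% a lower one than Trpm7 and 10.6% a lower one than Trpm3.

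Trpm4 and Trpm7 together made up most TRPM RNA in every library. As shares of the summed FPKM of the 7 TRPM genes in the table, Trpm4 took 55.3% to 64.7% (median 61.3%), Trpm7 27.3% to 35.4% and Trpm6 5.84% to 14.5%. Trpm3 took 0.0189% to 0.140%. Trpm6 reached its highest share, 14.5%, in tamoxifen+primidone replicate 2, where its FPKM was 0.506 of that of Trpm7, against ratios of 0.202 to 0.427 in the other 8 libraries.

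**Figure D1:**
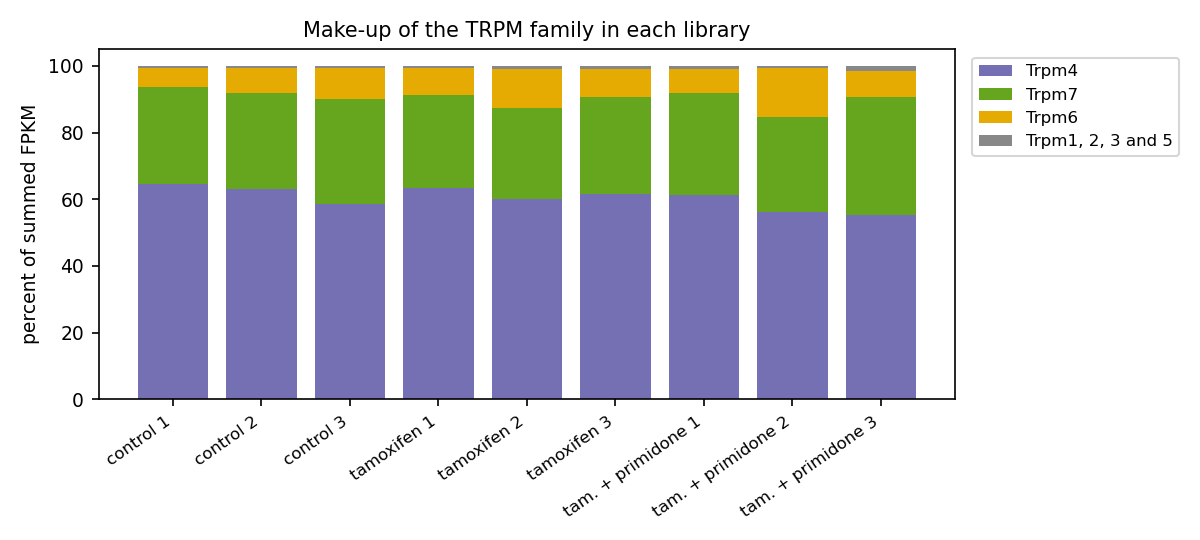
Share of each TRPM gene in the summed FPKM of Trpm1 to Trpm7 that are in the table (percent, stacked bars from 0), 1 bar per library. Trpm4 fills 55.3% to 64.7% of every bar and Trpm7 most of the rest, while the grey band of Trpm1, Trpm2, Trpm3 and Trpm5 is barely visible.

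Trpm3, the channel that primidone blocks, was close to the lower end of what these libraries could count. Its reads numbered 24, 26 and 32 in control, 21, 21 and 4 in tamoxifen libraries and 17, 31 and 9 in those of tamoxifen+primidone mice, of 36393120 to 39958443 counts per library. The 4 counts of tamoxifen replicate 3 carry an exact 95% Poisson interval of 1.09 to 10.2 counts, and the 24 of control replicate 1 one of 15.4 to 35.7. These intervals cover counting error only. Tamoxifen replicate 3 and tamoxifen+primidone replicate 3 stood lowest, and every other library had 17 counts or more. The reads are spread over a long gene, for the length implied by the authors' counts and FPKM was 22420 bases, against 4542 for Trpm4.

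In CPM (counts relative to library size, after TMM scaling in edgeR), Trpm3 stood at 0.729 ± 0.122 in control, 0.407 ± 0.265 in tamoxifen and 0.484 ± 0.282 in libraries of tamoxifen+primidone mice (SD, n = 3 each). All 3 tamoxifen libraries, at 0.102 to 0.579 CPM, lay below all 3 controls, at 0.627 to 0.863, and 26.1% of all genes tested likewise had no overlap between these groups. The log2 fold change of Trpm3 in tamoxifen against control was -0.84 ± 0.67 (SE), with an adjusted p of 0.554 in edgeR's quasi-likelihood test. Its 95% interval, -2.32 to 0.64, runs from 0.200 to 1.56 times the control level. Without tamoxifen replicate 3 the log2 fold change was -0.38, so this library decides much of its size. In bulk tissue such as this, fewer cells of a type and less RNA per cell cannot be told apart. Libraries with primidone overlapped both other groups, and the log2 fold change of Trpm3 was 0.25 ± 0.67 against tamoxifen (interval -1.24 to 1.75, adjusted p = 0.906) and -0.59 ± 0.66 against control (adjusted p = 0.639). With 3 mice per group and few reads, no difference of Trpm3 between mice with and without primidone was detectable. The interval runs from 0.422 to 3.36 times the tamoxifen level.

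The reads counted as Trpm3 may not all be its own. In GENCODE M21, Trpm3 shares 277 exon bases with Gm27151 and 351 with C330002G04Rik, both on the opposite strand and neither a row of the count table. The sources used here do not say whether the counting used strand, so reads of these genes cannot be told apart from those of Trpm3. Markers of neurons, the cells best known for this channel, were also scarce: the synaptic gene Snap25 had 0 to 1 counts, the catecholamine enzyme gene Th 0 to 6 and the peripheral neuron filament gene Prph 5 to 28. Schwann cell genes were present, with 467 to 666 counts for Mbp. Of the 12 nerve and Schwann cell markers 8 were tested, and 0 passed in edgeR in any of the 4 comparisons. In each, 1 or 2 had an unadjusted p under 0.05, beside 13.8% to 23.2% of all genes tested. DESeq2 or limma-voom called up to 1.

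In the edgeR fit reported here, Trpm7 had the lowest adjusted p of the 5 in tamoxifen and in both tamoxifen groups against control. Its level was 78.3, 86.0 and 77.9 CPM in control, 67.9, 70.3 and 63.0 CPM in tamoxifen and 77.0, 66.6 and 69.2 CPM in libraries of tamoxifen+primidone mice. Each of the 6 libraries of tamoxifen-dosed mice lay below each of the 3 controls, and 6.57% of all genes tested were likewise lower in all 6. This separation depended on the TMM scaling, for on the authors' FPKM tamoxifen+primidone replicate 1, at 8.99, lay above control replicates 1 (8.51) and 3 (8.40). The 3 tamoxifen libraries lay below the 3 controls on both scales. The log2 fold change of Trpm7 was -0.27 ± 0.08 in tamoxifen against control, with an unadjusted p of 0.00982 and an adjusted p of 0.139 in edgeR. It was -0.19 ± 0.08 in tamoxifen+primidone against control (adjusted p = 0.217) and -0.23 ± 0.07 for both tamoxifen groups against control (adjusted p = 0.0985). Between the groups with and without primidone it was 0.08 ± 0.08, with an interval of -0.11 to 0.27 and an adjusted p of 0.737. Trpm7 therefore did not pass the threshold of 0.05 in any comparison, and the interval for primidone corresponds to 0.928 to 1.20 times the tamoxifen level.

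Trpm4, the most abundant of the 5, had 88.6, 95.1 and 73.4 CPM in control libraries. It had 77.9, 78.2 and 67.8 CPM in tamoxifen and 77.9, 66.1 and 54.5 CPM in libraries of tamoxifen+primidone mice. The groups overlapped, with control replicate 3 inside the range of the treated libraries and tamoxifen+primidone replicate 3 the lowest of all 9. The log2 fold change of Trpm4 was -0.20 ± 0.14 in tamoxifen against control (adjusted p = 0.487) and -0.17 ± 0.14 in tamoxifen+primidone against tamoxifen (interval -0.48 to 0.13, adjusted p = 0.630). In tamoxifen+primidone against control it was -0.37 ± 0.14, with an unadjusted p of 0.0216 and an adjusted p of 0.139. For both tamoxifen groups against control it was -0.29 ± 0.12, with an adjusted p of 0.181.

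Trpm6 and Trpm2 each varied most within the group given primidone, while Trpm2 varied little among controls. Trpm6 had 13.5, 19.6 and 19.4 CPM in control, 16.4, 25.6 and 15.9 CPM in tamoxifen and 15.2, 28.7 and 13.2 CPM in libraries of tamoxifen+primidone mice. Replicate 2 was the highest of both treated groups, and on this scale the lowest and highest of all 9 libraries were both in the group given primidone. The log2 fold change of Trpm6 was 0.14 ± 0.31 in tamoxifen against control (adjusted p = 0.861), -0.02 ± 0.31 in tamoxifen+primidone against tamoxifen (interval -0.72 to 0.68, adjusted p = 0.986) and 0.12 ± 0.31 in tamoxifen+primidone against control (adjusted p = 0.855). Without tamoxifen+primidone replicate 2, the value in tamoxifen+primidone against control turned to -0.30. The sign of the Trpm6 difference thus rested on single libraries.

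Trpm2 was counted 40, 37 and 34 times in control, 44, 54 and 62 times in tamoxifen libraries and 33, 49 and 88 times in those of tamoxifen+primidone mice. On the CPM scale it stood at 0.984 ± 0.0642 in control, 1.40 ± 0.240 in tamoxifen and 1.44 ± 0.701 in libraries of tamoxifen+primidone mice (SD, n = 3 each). The 3 tamoxifen libraries lay above the 3 controls, while those with primidone held both the lowest and the highest of all 9 on this scale. The log2 fold change of Trpm2 was 0.51 ± 0.41 in tamoxifen against control (adjusted p = 0.557), 0.04 ± 0.40 in tamoxifen+primidone against tamoxifen (interval -0.85 to 0.92, adjusted p = 0.982) and 0.54 ± 0.41 in tamoxifen+primidone against control (adjusted p = 0.457). Without tamoxifen+primidone replicate 3 the last value was 0.09.

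**Figure D2:**
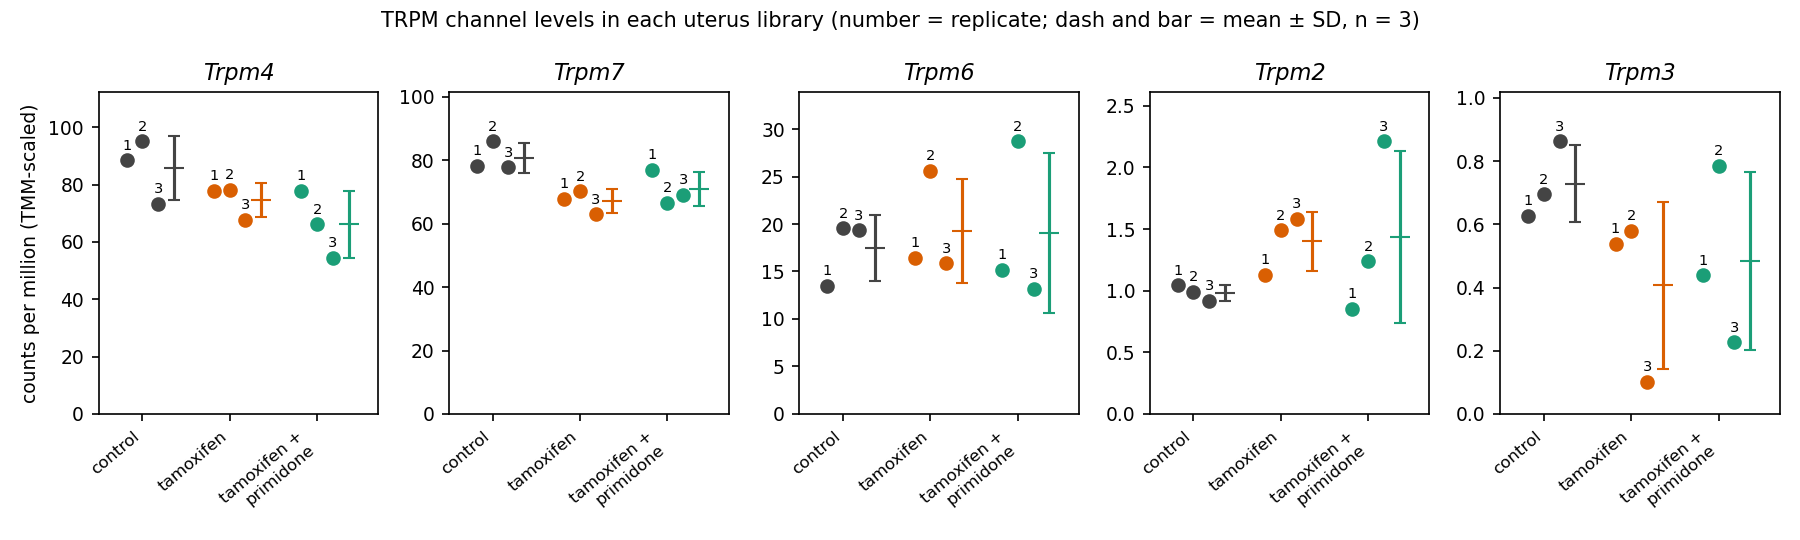
Level of each TRPM gene in each library, in CPM after TMM scaling (linear axes from 0, a separate scale per gene), with numbered points for replicates and a dash and bar for the mean ± SD of 3. For Trpm7 all 6 libraries of tamoxifen-dosed mice lie below the 3 controls on this scale, though not on FPKM, and for Trpm3 the lowest point is tamoxifen replicate 3 at 0.102.

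The counts of the 5 that passed, or did not overlap on the TMM-scaled CPM, are set here beside the share of all genes tested. In tamoxifen against control 0 of the 5 passed in edgeR, where 1.53% of 15186 genes did, and 1 of 5 (Trpm7) had an unadjusted p under 0.05, as did 17.8% of genes. In the same comparison the libraries of 3 of the 5 did not overlap between the groups (Trpm3 and Trpm7 lower, Trpm2 higher), as for 26.1% of genes. In tamoxifen+primidone against tamoxifen 0 of 5 passed, with 0.0132% of genes, 0 of 5 had an unadjusted p under 0.05, with 13.8% of genes, and the groups overlapped for all 5, where 16.6% of genes did not overlap. In tamoxifen+primidone against control 0 of 5 passed, with 5.35% of genes, 1 of 5 (Trpm4) had an unadjusted p under 0.05, with 23.2% of genes, and 1 of 5 (Trpm7, lower) did not overlap on this scale, where 29.1% of genes did not. For both tamoxifen groups against control 0 of 5 passed, with 4.87% of genes, and 2 of 5 (Trpm4 and Trpm7) had an unadjusted p under 0.05, with 23.1% of genes. An F test across the 3 groups at once gave adjusted p-values from 0.155 for Trpm7 to 0.937 for Trpm6, with 0 of 5 passing where 3.84% of genes did and 1 of 5 (Trpm7) under an unadjusted 0.05, as were 23.4% of genes. DESeq2 and limma-voom also called 0 of the 5 in each of these tests. The comparisons share their control or tamoxifen libraries, so they are not independent of each other.

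**Figure D3:**
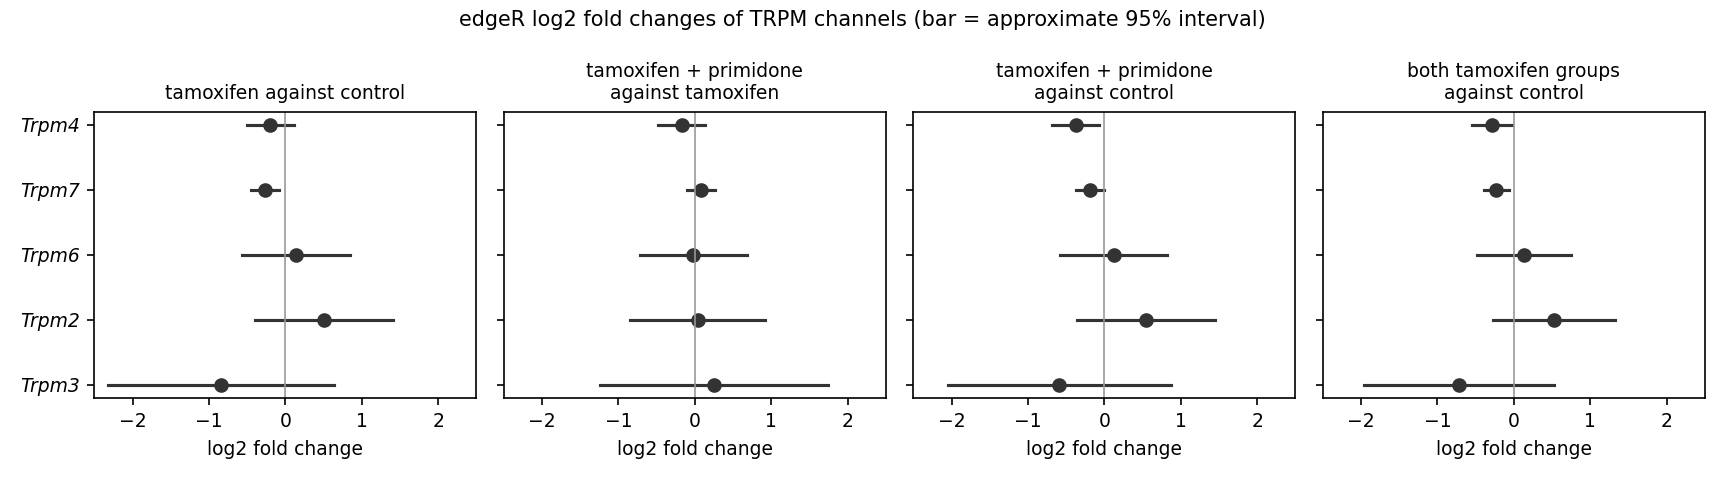
Log2 fold changes of the 5 TRPM genes in edgeR for the 4 comparisons, with bars for the approximate 95% interval and a vertical line at 0. The intervals are narrowest for Trpm7 and Trpm4 and widest for Trpm3, whose interval runs from -2.32 to 0.64 in tamoxifen against control.

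Spread between libraries also differed among the 5. Over all 9 libraries the coefficient of variation of CPM was 10.0% for Trpm7, 16.0% for Trpm4, 29.0% for Trpm6, 33.8% for Trpm2 and 46.2% for Trpm3. Counting error alone would give 1.89% for Trpm7 and 1.86% for Trpm4, but 22.1% for Trpm3. For Trpm6 the value from counting was 3.75%, and its highest library held 2.18 times its lowest. These values set the spread between separate mice beside counting error and do not test it.

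The other TRPM genes had few reads. Trpm1 had 0 to 18 counts and Trpm5 0 to 23, so neither passed the filter, and both were highest in tamoxifen+primidone replicate 1. Trpm1 serves retinal bipolar cells and Trpm5 the taste cells and tuft cells. In GENCODE M21, Trpm5 shares 220 exon bases with Tssc4 on the opposite strand, so its few counts are uncertain. The mean FPKM of Trpm5, 0.0286, lay next to that of Trpm3, and their ranges overlapped. With the longest transcripts as lengths Trpm5 lay below Trpm3, at 0.0364 against 0.0438. Trpm8 was not analysed here.

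Within the wider TRP family of 26 genes in the table, ranked by mean FPKM, Trpm4 stood 2nd, Trpm7 5th, Trpm6 10th, Trpm2 15th and Trpm3 22nd. First stood Trpv6, a calcium-selective epithelial channel, at 76.5 ± 23.2 FPKM (SD, n = 9), followed after Trpm4 by the lysosomal channel gene Mcoln1 at 13.2 ± 1.11. Of 20 other TRP genes listed, 19 were in the table and 15 were tested. Of these 15, 0 passed in edgeR in tamoxifen against control, and 0 had an unadjusted p under 0.05, beside 17.8% of all genes tested. In tamoxifen+primidone against tamoxifen 0 passed, with 2 under an unadjusted 0.05, beside 13.8% of genes, and 1 called by DESeq2. In tamoxifen+primidone against control 1 passed, beside 5.35% of all genes tested. That gene was Trpv6, lower at 146 ± 26.2 CPM than the 261 ± 51.6 CPM of control (log2 fold change -0.84 ± 0.19, adjusted p = 0.0409 in edgeR). Of the 9 fits that left out a library the call was kept in 3, those without tamoxifen replicate 2 or 3 or tamoxifen+primidone replicate 2. The median log2 fold change of the 15 was -0.16 in that comparison, beside 0.01 over all genes tested. Trpv6 stood at 268 ± 57.4 CPM in tamoxifen libraries. Its log2 fold change was 0.04 ± 0.19 in tamoxifen against control (adjusted p = 0.942 in edgeR). With primidone against tamoxifen it was -0.88 ± 0.19 (adjusted p = 0.125 in edgeR).

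**Figure D4:**
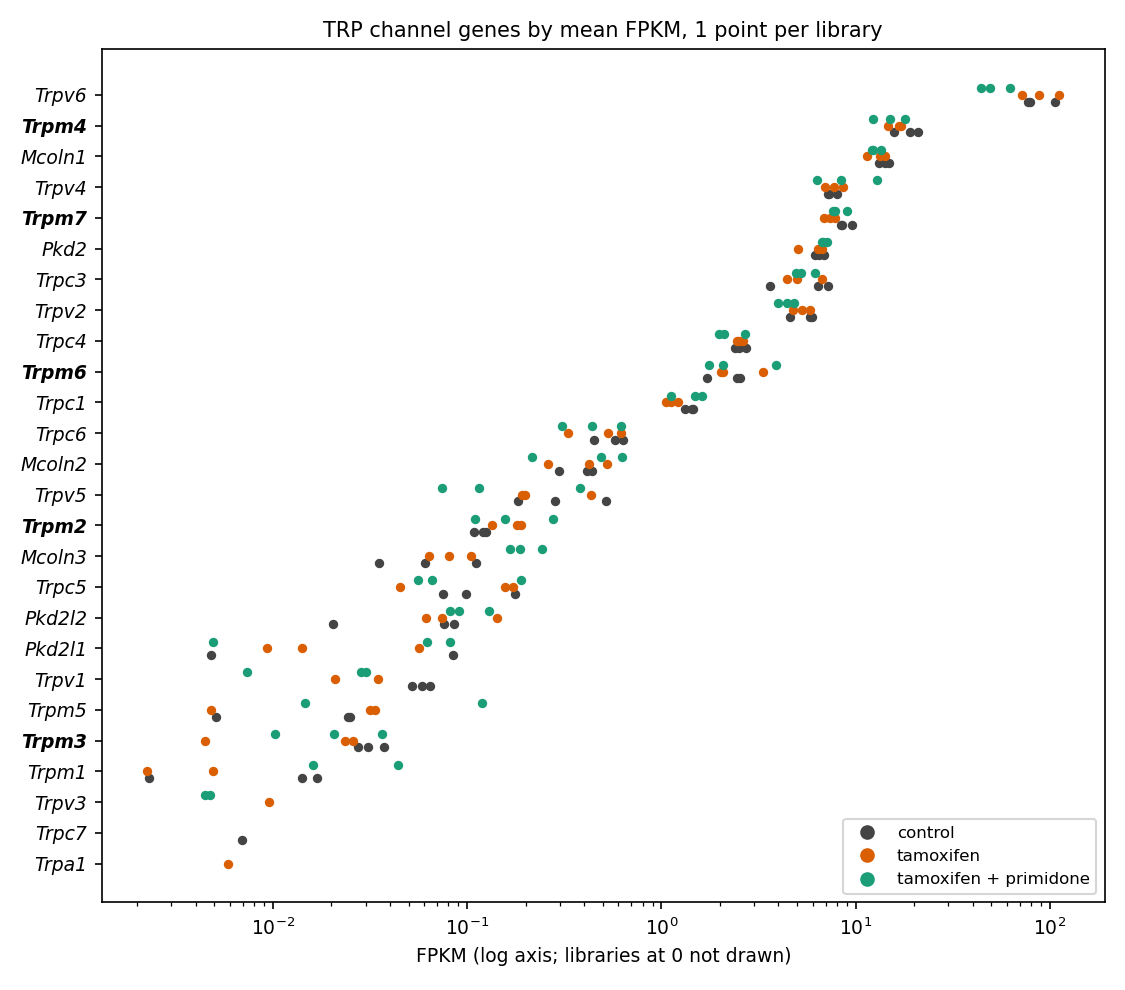
FPKM of each TRP channel gene in each library on a log axis (libraries at 0 are not drawn), ordered by mean FPKM, with colours for the 3 groups and the 5 TRPM genes described here in bold. Trpm4 and Trpm7 stand near the top below Trpv6, and the points of Trpm3 lie between 0.00448 and 0.0374.

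Genes around these channels were then examined by their roles. For the lists here and below, 17.8% of all genes tested had an unadjusted p under 0.05 in tamoxifen against control. The share was 13.8% in tamoxifen+primidone against tamoxifen, 23.2% in tamoxifen+primidone against control and 23.1% for both tamoxifen groups against control. After adjustment edgeR called 1.53%, 0.0132%, 5.35% and 4.87% of all genes tested in these 4 comparisons, in the same order. For magnesium, which TRPM6 and TRPM7 carry, 27 of 28 listed transport genes were in the table and 24 were tested. The most abundant were Ptp4a2, a phosphatase that binds the CNNM magnesium transporters, at 32.1 ± 2.74 FPKM, and Tusc3, linked to magnesium uptake, at 22.8 ± 1.73. In edgeR 0 of the 24 passed in tamoxifen against control (5 at an unadjusted p under 0.05, 1 by DESeq2) and 0 in tamoxifen+primidone against tamoxifen (4 unadjusted, 2 by DESeq2), and 1 was lower in tamoxifen+primidone against control. It was Nipal3, of the NIPA-like magnesium transporters (-0.36 ± 0.08 on the log2 scale, adjusted p = 0.0285). The call was lost without any 1 of the 3 controls or tamoxifen+primidone replicate 2 or 3. Nipal3 also passed for both tamoxifen groups against control, at -0.27 ± 0.07 (adjusted p = 0.0466), a call kept only in the fit without tamoxifen replicate 2. The median of the list there was 0.03, beside 0.0045 over all genes. Kidney and gut markers, the epithelia best known for Trpm6, were few. Of 8 listed, 6 were in the table and 2 were tested, Cdh16 (25 to 196 counts) and Vil1 (27 to 114 counts). The kidney tubule gene Umod had 0 to 6 counts.

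For ADP-ribose, the opener of TRPM2, 17 genes of NAD and ADP-ribose metabolism were listed, all tested. Nadk, the NAD kinase gene, had the highest level at 68.7 ± 7.30 FPKM, followed by Adprh, which removes ADP-ribose from proteins, at 40.4 ± 3.93. In edgeR only Parp1 passed, the gene of the main poly-ADP-ribose polymerase, higher in tamoxifen+primidone (100.2 ± 8.04 CPM) than in control (78.6 ± 3.79 CPM), with a log2 fold change of 0.35 ± 0.09 and an adjusted p of 0.0496. Of the 9 fits that left out a library, only that without tamoxifen replicate 3 kept the call. DESeq2 called 1 of the 17 in each of tamoxifen+primidone against control, tamoxifen+primidone against tamoxifen and both tamoxifen groups against control, and limma-voom called 0 in every comparison. In tamoxifen+primidone against control the median of the 17 was 0.12, beside 0.01 over all genes. The log2 fold change of Parp1 was 0.003 ± 0.09 in tamoxifen against control (adjusted p = 0.991 in edgeR). With primidone against tamoxifen it was 0.35 ± 0.09 (adjusted p = 0.156 in edgeR). Of the 17, 4 had an unadjusted p under 0.05 in tamoxifen against control and 1 in tamoxifen+primidone against tamoxifen. In tamoxifen+primidone against control 4 did, and 6 for both tamoxifen groups against control.

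For pregnenolone sulfate, the steroid that opens TRPM3, 13 listed genes of steroid synthesis, sulfation and uptake were in the table and 8 were tested, with 0 calls by edgeR in all 4 comparisons, 1 or 2 at an unadjusted p under 0.05 in each and up to 1 by DESeq2 or limma-voom. Papss1, which makes the sulfate donor, had the highest level at 30.8 ± 3.38 FPKM and Sts, the steroid sulfatase gene, 6.29 ± 1.57. Star, of the same list, fell just short for both tamoxifen groups against control, at -1.81 ± 0.44 (adjusted p = 0.0521 in edgeR). In that comparison 5 of the 8 were higher and 3 lower. Star had 16.2 ± 7.89 CPM in control, 3.99 ± 2.40 in tamoxifen and 5.30 ± 2.165 in libraries of tamoxifen+primidone mice. Cyp11a1, which makes pregnenolone, had 0 to 19 counts and did not pass the filter. TRPM4 is inhibited by the sulfonylurea glibenclamide, whose own receptors are the sulfonylurea receptors of KATP channels. Of these 4 genes the vascular pair Kcnj8 and Abcc9 was tested, at 12.5 ± 1.99 and 4.52 ± 0.650 FPKM, with 0 calls by edgeR, DESeq2 or limma-voom and 1 gene at an unadjusted p under 0.05, in tamoxifen+primidone against control. Of 21 listed genes of phosphoinositides, calmodulin and G proteins, which set the activity of TRPM channels, 20 were tested, with 0 calls by edgeR, DESeq2 or limma-voom and 0 to 4 at an unadjusted p under 0.05 in each comparison. The most abundant were Rack1, of a G protein beta-like scaffold, at 1302 ± 144 FPKM and the calmodulin gene Calm2 at 456 ± 37.4.

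Among 11 listed genes of TRPM7 kinase substrates, related kinases and myosin, 10 were tested. Anxa1, a substrate of the kinase, had the highest level at 226.8 ± 16.5 FPKM and the nonmuscle myosin gene Myh9 had 90.5 ± 5.20. In tamoxifen+primidone against control 2 were lower, Eef2k, an alpha-kinase like that of TRPM7 (-0.38 ± 0.09, adjusted p = 0.0409), and Plcg2, a phospholipase of immune cells (-0.48 ± 0.11, adjusted p = 0.0401). Of the 9 fits that left out a library, 2 kept Eef2k (without control replicate 3 or tamoxifen replicate 2) and 2 kept Plcg2 (without tamoxifen or tamoxifen+primidone replicate 2). Eef2k also passed for both tamoxifen groups against control (-0.33 ± 0.08, adjusted p = 0.0394), a call kept only without tamoxifen+primidone replicate 1. In tamoxifen+primidone against control the list's median was -0.09, beside 0.01 over all genes, and DESeq2 called 3 and limma-voom 2. For both tamoxifen groups against control each of these tools called 1. In tamoxifen against control and in tamoxifen+primidone against tamoxifen 0 were called by edgeR, DESeq2 or limma-voom. At an unadjusted p under 0.05 in edgeR were 2 of the 10 in each of the latter comparisons. In tamoxifen+primidone against control 3 were, and 4 for both tamoxifen groups.

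For the excitability of uterine muscle, 18 of 18 listed genes were tested. The most abundant were the calcium pump gene Atp2a2 at 82.9 ± 10.3 FPKM and the gap junction gene Gja1 at 55.5 ± 6.59. The calcium-activated chloride channel gene Ano1 passed in tamoxifen+primidone against control, at 44.6 ± 9.53 against 24.0 ± 6.01 CPM (log2 fold change 0.89 ± 0.19, adjusted p = 0.0309), and was kept in 5 of the 9 fits that left out a library. It was lost without control replicates 1 or 3 and without tamoxifen+primidone replicates 1 or 2. The other 17 did not pass in edgeR in any of the 4 comparisons, while DESeq2 called up to 3 of the list. In tamoxifen+primidone against control 8 of the 18 had an unadjusted p under 0.05, beside 23.2% of all genes tested. For both tamoxifen groups against control 7 did, beside 23.1%. In the former comparison 9 were higher and 9 lower, and Kcnma1 fell just short (-1.05 ± 0.27, adjusted p = 0.0518 in edgeR).

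Markers of the tissue and of other cells were set beside the channels. All 10 uterus genes listed were tested, with 10764 to 13635 counts for the estrogen receptor gene Esr1 and 8892 to 11873 for the progesterone receptor gene Pgr. The summed level of 10 smooth muscle markers was 8437 to 13330 CPM in control, 6801 to 8269 in tamoxifen libraries and 6509 to 8145 in those of tamoxifen+primidone mice, and edgeR called 0, 2 and 4 of the 10 lower in tamoxifen, in tamoxifen+primidone and in both tamoxifen groups against control. DESeq2 called 6, 7 and 7, and limma-voom 0, 2 and 4, and 6, 7 and 7 had an unadjusted p under 0.05 in edgeR. The edgeR calls (Actg2, Cnn1, Myh11 and Myl9) were lost without control replicate 1 and without control replicate 3. The 10 had a median log2 fold change of -0.56 in the last of these, against -0.23 for Trpm7 and -0.29 for Trpm4. Control replicate 2 had the highest Trpm4 and Trpm7 of all libraries but the lowest smooth muscle level among controls. The part of smooth muscle in the values of Trpm4 and Trpm7 was not tested.

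The summed level of 7 tested neutrophil markers was 25.9 to 52.0 CPM in control, 63.0 to 75.6 in tamoxifen and 44.7 to 87.9 in libraries of tamoxifen+primidone mice, with 0 calls by edgeR (1 to 3 at an unadjusted p under 0.05, up to 2 by DESeq2). Trpm6 was highest in the libraries where the mean log2 level of that list was highest, tamoxifen replicate 2 (1.30 relative to the mean of 9 libraries) and tamoxifen+primidone replicate 2 (1.25). The other libraries did not all follow. In tamoxifen replicate 1 the neutrophil list stood at 0.76 and Trpm6 at -0.13. In control replicates 2 and 3 the neutrophil list stood at -0.95 and -0.37, and Trpm6 at 0.12 and 0.11. Trpm2, known from these cells, was highest in tamoxifen+primidone replicate 3, where the neutrophil list stood at -0.27 and the macrophage list at -0.29. Of 12 liver markers, edgeR called 5 higher in tamoxifen and 11 in tamoxifen+primidone against control (DESeq2 6 and 11, limma-voom 1 and 10), with summed levels of 63.4 to 81.0 CPM in control, 112 to 228 in tamoxifen libraries and 240 to 262 in those of tamoxifen+primidone mice. Of 14 cell cycle genes edgeR called 2 lower in tamoxifen and 0 in tamoxifen+primidone against control, where DESeq2 called 10 and 3, limma-voom 0 and 0, and 10 and 4 had an unadjusted p under 0.05. The log2 fold changes of the 14 were all negative in tamoxifen against control (median -1.52) and all positive in tamoxifen+primidone against tamoxifen (median 1.19), the latter with 0 calls by edgeR, 12 at an unadjusted p under 0.05 and 10 calls by DESeq2. The summed level of the 14 was 363 to 454 CPM in control and 193 to 211 in tamoxifen libraries. In tamoxifen+primidone replicates 1, 2 and 3 it was 214.5, 502 and 460 CPM, so replicate 1 stood near the tamoxifen libraries. The part of these cells and states in the channel values was not tested.

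**Figure D5:**
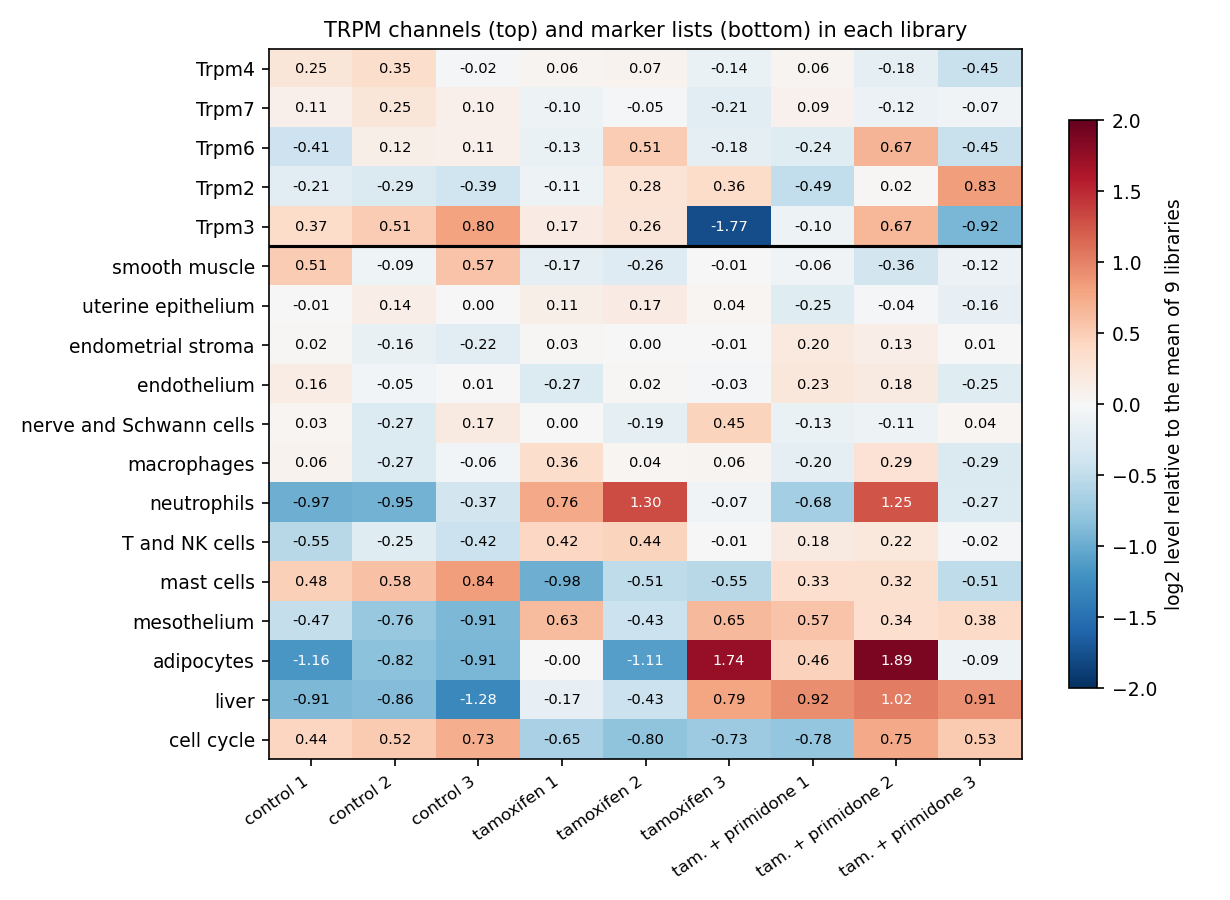
Log2 level of each TRPM gene (top rows) and mean log2 level of each marker list (lower rows) in each library, relative to the mean of the 9 libraries, with red for higher and blue for lower and the value printed in each cell. Trpm3 in tamoxifen replicate 3 is the deepest blue among the channels, at -1.77. Trpm6 and the neutrophil list are both high in replicate 2 of the treated groups. In tamoxifen replicate 1 the neutrophil list is high (0.76) and Trpm6 is not (-0.13).

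The genes whose log2 CPM followed each channel most closely over the 9 libraries were taken from all tested genes with a mean of at least 5 CPM. For Trpm7 they were Ubl7 (Pearson r = 0.978), H2az2 (0.971) and Frmd4b (0.964), and for Trpm4 Dyrk1b (0.974), Brd8 (0.973) and Tbc1d22a (0.973). For Trpm3 they were Bcap29 (0.972), Bri3 (0.967) and Nupr1 (0.962), and for Trpm2 Mat2a (0.968), Ube2k (0.947) and Ammecr1 (0.944). For Trpm6 they were Hivep1 (0.920), Gfod2 (0.886) and 1700001O22Rik (0.869). These are descriptions over 9 libraries that share their groups and their scaling, each picked as the highest of 11706 genes compared (11705 where the channel itself is among them). Trpm6 had 1 gene with r above 0.9 and Trpm7 had 57. Among the channels themselves, r was 0.69 between Trpm4 and Trpm7, -0.74 between Trpm2 and Trpm4, and -0.12 between the related pair Trpm6 and Trpm7.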

How the data were processed

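The submitters' processing notes name HISAT2 and HTSeq, R 3.2.0 and DESeq2, and build GRCm39. The sources used here name no annotation, tool version beside R's or strand setting. The authors deposited unnormalized read counts per gene symbol, and, for the same genes, FPKM, adjusted by the authors for depth and length. Groups and replicate numbers came from the labels. The p-values set each difference between groups against the spread between mice within groups, of 3 mice each, estimated over all 9 libraries. The 5 genes, the 28 gene lists and the tests were chosen with earlier results of these data known.

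Counts were tested in R 4.3.3 with edgeR 4.0.16 (quasi-likelihood test, TMM scaling, default low-count filter, robust dispersions) in a single fit of all 9 libraries. The fit covered 15186 of 18094 genes, with two-sided Benjamini-Hochberg adjustment over all of them and a threshold of 0.05. Standard errors are the absolute log2 fold change over the root of the F statistic, and approximate. A library held 36393120 to 39958443 counts, so 3 counts equal 0.0755 to 0.0827 CPM. Replicates of a group differed by a chi-square per degree of freedom of 20.24 or more, so none was counted as a repeat. The scripts were tested on simulated data. Named from each list were genes past the threshold and the 2 of highest mean FPKM, and for lists of cell types mostly counts. Star and Kcnma1, just short of the threshold, were named after seeing the data. Alternatives used DESeq2 1.42.0 and limma 3.58.1, other scaling, filters and pseudocounts of 1 and 0.1 on FPKM, a replicate block and leaving out each library. Those for list genes, and the FPKM scale for overlap between groups, were chosen after seeing the data. Promoter windows are RefSeq's on GRCm38.p6, another build than the authors', and were matched by symbol for 6 of the 7 TRPM genes. A gene of the magnesium list is not reported here and was left out of its counts.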

Additional observations from a re-analysis of the deposited data

How the results depend on the processing

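Under 19 other settings, 347 of 367 values of the 5 channels kept their direction and their side of the threshold, 19 turned sign and 1 passed the threshold. With primidone against tamoxifen, Trpm6 (-0.02 in the reported fit) turned to 0.0191 with upper-quartile scaling, to 0.0107 with limma on log2(FPKM + 1) with or without a filter and to 0.0034 on log2(FPKM + 0.1). Trpm2 (0.04) turned there to -0.0539 with limma-voom and -0.0193 with the replicate block. Leaving out 1 library at a time gave log2 ranges for Trpm6 of -0.1116 to 0.2644 in tamoxifen against control, -0.4478 to 0.2369 in tamoxifen+primidone against tamoxifen, -0.3019 to 0.3338 in tamoxifen+primidone against control and -0.078 to 0.2398 for both tamoxifen groups. In tamoxifen+primidone against tamoxifen the ranges were -0.4183 to 0.2972 for Trpm2 and -0.2906 to 0.5892 for Trpm3. The cause was not tested. Trpm3 was below the FPKM filter of 0.1 and had no value there.

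With the replicate number as a block, 1 channel passed, Trpm4 in tamoxifen+primidone against control (-0.38, adjusted p = 0.0428 in edgeR, against a range of 0.0428 to 0.340 over all alternatives). Same-numbered libraries correlated by -0.134 to 0.177 and are not paired by the labels. The lowest adjusted p of Trpm7 was 0.0632, for both tamoxifen groups without tamoxifen+primidone replicate 1.

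Counts over all genes moved more. DESeq2 called 1112 genes in tamoxifen against control, 582 in tamoxifen+primidone against tamoxifen, 1876 in tamoxifen+primidone against control, 1821 for both groups and 2291 in the test across groups, where edgeR called 233, 2, 812, 739 and 583. In tamoxifen+primidone against tamoxifen, the count was 9 with RLE scaling, 21 with no filter, 53 with the block, 1 with either FPKM pseudocount and 0 with FPKM unfiltered. Unfiltered FPKM gave 144 in tamoxifen against control, 481 for both groups and 327 across groups, and a fit of only those 2 groups gave 546 in tamoxifen against control. Without 1 library the counts ran, in the same order, from 22 to 439, 0 to 85, 122 to 800, 112 to 946 and 59 to 664. The lowest came without control replicate 1 or, for both groups, control replicate 3. Trpm3 and Trpm2 had the fewest reads of the 5 channels, at 4 to 32 and 33 to 88 counts.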
